A study of Mus musculus with 15 samples.

Results

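Cholesterol synthesis, uptake and removal were followed over the circadian day in mouse liver through the ribosome profiling reads of 30 genes, out of 20097 genes named among the 28167 transcripts measured. The members are a list of pathway genes chosen by symbol and not by their readout, with 1 transcript taken per gene (the one with the most reads), from the 38 transcripts that these genes have in the data. They comprise 18 enzymes from acetyl-CoA to cholesterol, 4 genes of SREBP control (the transcription factor SREBP-2 and 3 proteins that regulate it), 4 genes of cholesterol uptake and transport inside the cell, and 4 genes of efflux and esterification.

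Ribosome profiling sequences the short mRNA fragments that ribosomes protect from nuclease, so its read counts report how much of an mRNA is engaged by ribosomes. Wild-type male C57BL/6N mice, 8 to 10 weeks old, were kept in 12 h of light and 12 h of dark for 2 weeks and then moved to constant darkness, and from 24 h later livers were taken every 4 h from circadian time CT0 to CT24. CT0 is the subjective dawn and CT12 the subjective dusk. Each library came from frozen liver tissue of 1 mouse, with 2 mice at each of 7 time points and 14 libraries in all. All groups share strain, sex, genotype and housing, and no light was given at any of the sampled times. The pair used as CT24 carries that time in its sample names, while another of its labels gives CT0.

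Cholesterol is built in the endoplasmic reticulum by a long chain of enzymes that first makes mevalonate and squalene and then closes and trims the sterol rings. When sterols are scarce, SCAP carries the membrane-bound factor SREBP-2 (encoded by Srebf2) to the Golgi, where it is cut free to switch on the genes of synthesis and uptake; when sterols are plentiful, the INSIG proteins hold SCAP back. Liver is the main organ that makes cholesterol, packs it into lipoproteins and sends it into bile.

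Total counts ranged from 40593197 to 90458783 per library, and every member passed the filter on low counts (10 or more per library on average). Values are given as CPM (counts per 1000000) after TMM scaling, a method that sets library sizes by the bulk of the transcripts; this matters here because the highly translated Mup family took 34.2% to 57.6% of the counts. As a check of circadian time, the clock gene Arntl had its fitted peak at CT23.0 and the clock output gene Dbp at CT11.2. Of 5 hepatocyte markers the summed level was 32810 to 46460 CPM, against 64.8 to 117 CPM for 5 Kupffer cell and 95.7 to 148 CPM for 5 endothelial cell markers, 101 to 157 CPM for 5 stellate cell, 11.03 to 24.3 CPM for 5 cholangiocyte and 36.5 to 73.7 CPM for 4 erythroid markers. CT20 replicate 2 held 2419 CPM of 5 pancreatic acinar markers, against at most 48.5 CPM in the other libraries, and the rhythm test called the same 14 members without it, while the night-day test called 7 in place of 5, adding Insig2 and Npc1. Every nonzero count of CT16 replicate 2 is an even number, and halving them left the calls of the rhythm and night-day tests on the members as they were. In liver tissue, fewer cells of a type and less RNA per cell cannot be told apart, and neither can more mRNA and more ribosomes on each mRNA, since no RNA-seq was used here.

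The promoters of the members were read first, since the members move together in part. RefSeq windows on GRCm38.p6, from 250 bases before to 50 bases after the start site, matched the measured transcript of 23 of the 30 members. Pmvk, Fdps, Fdft1, Sqle, Stard4, Npc1 and Soat2 had no matching window and were not searched. The sterol regulatory element TCACNCCAC (N is any base), searched on both strands, was in 1 of the 23 windows, that of Hmgcs1, and in 1.24% of all 32851 windows. The E-box CACGTG, which the clock factors CLOCK and BMAL1 bind, was in 4 of 23 member windows and in 7.15% of all windows. CCAAT was in 20 of 23 and in 37.4% of all windows, and the GC box GGGCGG was in 19 of 23 and in 35.7% of all windows. The D-box TTATGNAA was in 0 of 23 and in 3.38% of all windows. The sterol element and the 4 E-boxes are shown in capitals, each with its neighbouring bases on the strand of the gene.
Hmgcs1 (chr13:119690204-119690233, plus strand, sterol element 137 bases before the start site): cgtcaccgtcTCACCCCACttcccaggtcc
Insig1 (chr5:28071301-28071330, plus strand, E-box 101 bases before the start site): tgggtgaggtCACGTGgctccggtggcagc
Scap (chr9:110333306-110333335, plus strand, E-box 40 bases before the start site): ccgccgggagCACGTGtggagggcggcgga
Sc5d (chr9:42264379-42264408, minus strand, E-box 98 bases before the start site): acgcggcgacCACGTGaccgccgcgaccgc
Hsd17b7 (chr1:169969329-169969358, minus strand, E-box 143 bases before the start site): acccttgtgtCACGTGgctccgcccctcgg
A match is a description of these letters and not a measured binding site. Of the 4 members with an E-box, Insig1 and Scap passed the rhythm test and Sc5d and Hsd17b7 did not, where 46.7% of all 30 members passed.

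A 24 h curve was fitted to each transcript by edgeR's quasi-likelihood test, and 14 of the 30 members passed an adjusted p of 0.05, where 11.3% of the 17299 transcripts tested did. Without the CT12 time point the count was 7, and Hmgcs1 (adjusted p = 0.308), Abcg5 (0.147), Dhcr7 (0.114), Srebf2 (0.112), Soat2 (0.0942), Scap (0.0625) and Mvd (0.0548) were lost. The median fitted peak-to-trough difference was 0.71 on the log2 scale over the members and 0.44 over all transcripts tested. The latter include transcripts with fewer counts than any member. Of the 14, 7 peaked between CT19.6 and CT23.4, Hmgcs1, Insig2 and Scap peaked between CT0.85 and CT3.85, and Abcg8, Soat2, Npc1 and Abcg5 peaked between CT8.70 and CT10.9. The late-night and dawn groups adjoin, with Dhcr7 at CT23.4 (SE 1.02 h) and Hmgcs1 at CT0.85 (SE 1.07 h). Synthesis enzymes and SREBP control genes made up the late-night and dawn groups, and the late-day group held genes that move cholesterol out of lysosomes, out of the cell or into esters. JTK_CYCLE, the rank test that the study's methods name, called 12 members at a P of 0.05 adjusted over its lags but not over transcripts, where it called 13.4% of transcripts, and 11 of the 12 were among the 14, with Ebp added. With a further adjustment over all transcripts it called 376 of 17299 transcripts and 3 members, Pmvk, Insig2 and Npc1. On CPM scaled by total count JTK_CYCLE called 13 members, 8 of them among the 14, where it called 2045 of 17299 transcripts. Srebf2, Insig1 and the late-day genes Npc1, Abcg5, Abcg8 and Soat2 were not called there, and Mvk, Fdft1, Cyp51, Nsdhl and Sc5d were.

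**Figure D1:**
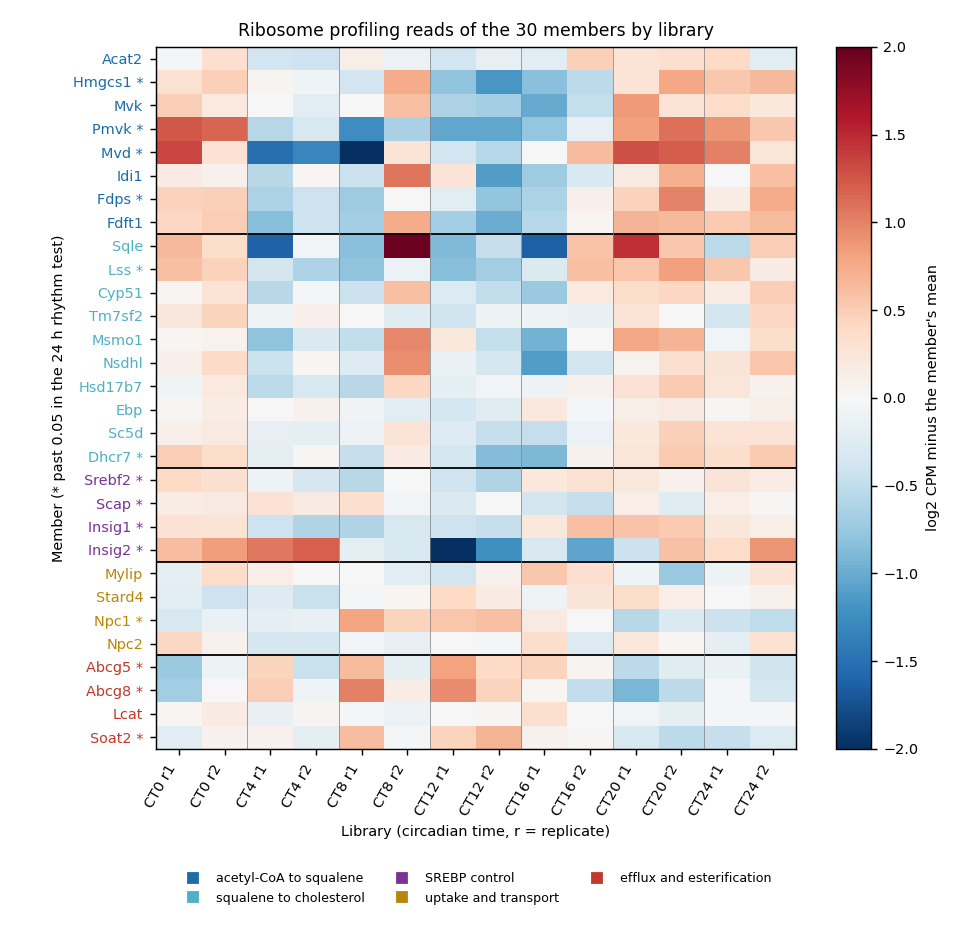
Ribosome profiling reads of the 30 members (rows, coloured by role) in the 14 libraries (columns, circadian time and replicate), as log2 CPM minus the mean of the member. Asterisks mark the 14 members past 0.05 in the rhythm test; CT8 replicate 2 is red for many enzymes where CT8 replicate 1 is blue.

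**Figure D2:**
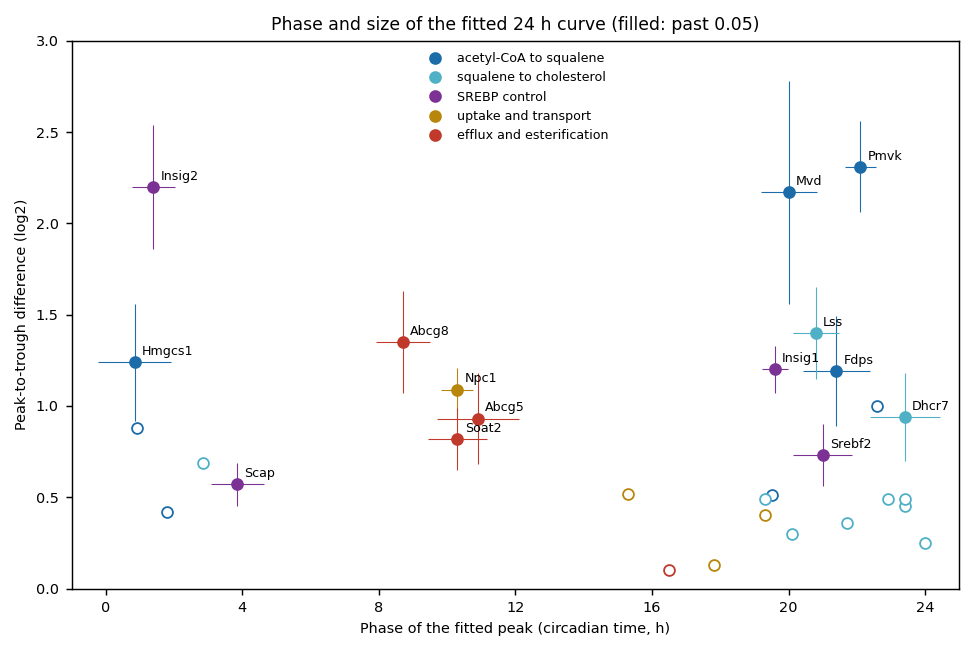
Phase of the fitted peak (circadian time in hours, ± SE for rhythmic members) against the fitted peak-to-trough difference (log2, ± SE) for each member, coloured by role; filled points passed 0.05. Filled points lie at CT19.6 to CT3.85 for synthesis and SREBP control and at CT8.70 to CT10.9 for Npc1, Abcg5, Abcg8 and Soat2.

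The early enzymes, which turn acetyl-CoA into squalene, had 4 of 8 rhythmic members and a median log2 difference from peak to trough of 1.09. Over all transcripts tested, 11.3% were rhythmic and the median was 0.44. Pmvk encodes phosphomevalonate kinase. Its CPM was 16.6 and 15.7 at CT0, 4.69 and 5.61 at CT4, 2.96 and 4.44 at CT8, 3.41 and 3.41 at CT12, 4.10 and 6.25 at CT16, 12.4 and 15.0 at CT20, and 12.9 and 10.1 at CT24. All 6 libraries of CT20, CT24 and CT0 lay above all 8 libraries of CT4 to CT16. The fitted difference of Pmvk was 4.98-fold (2.31 on the log2 scale, SE 0.25), with a peak at CT22.1 (SE 0.451 h) and an adjusted p of 4.33e-06.

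Mvd encodes the next enzyme, mevalonate diphosphate decarboxylase, and had low counts (43 to 470 per library). Its CPM was 7.93 and 3.83 at CT0, 1.10 and 1.27 at CT4, 0.54 and 3.78 at CT8, 2.39 and 2.104 at CT12, 3.13 and 4.86 at CT16, 7.60 and 7.27 at CT20, and 6.32 and 3.70 at CT24. The CT4 pair was low and the CT20 pair high with little spread, while the livers of CT0, CT8 and CT24 differed widely. The peak of Mvd was at CT20.0 (SE 0.816 h) and the fitted difference was 4.50-fold (2.17, SE 0.61, adjusted p = 0.0143). An antisense gene shares 539 exon bases with Mvd, and whether the counting used strand is not given in the sources used here. Coding reads alone gave 2.16 on the log2 scale. They were nearly all the reads of Mvd (3151, against 0 in the 5′UTR and 2 in the 3′UTR), so this is no check of the overlap. Without CT8 replicate 2, the higher liver of its pair, the difference of Mvd was 3.26 on the log2 scale (adjusted p = 0.000179).

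Hmgcs1 encodes the synthase that makes HMG-CoA, the substrate of the rate-limiting step. Its CPM was 53.5 and 59.8 at CT0, 44.7 and 40.6 at CT4, 33.2 and 71.9 at CT8, 24.7 and 19.3 at CT12, 24.1 and 30.0 at CT16, 51.9 and 73.9 at CT20, and 62.8 and 67.5 at CT24. The 4 libraries of CT12 and CT16 were the lowest, and CT8 replicate 2 stood among the highest of all. Hmgcs1, the 1 member of the 23 searched with that sterol element in its window, had a fitted difference of 2.36-fold (1.24, SE 0.32) and peaked at CT0.85 (SE 1.07 h). Its adjusted p was 0.0231; it was lost, with values up to 0.0932, when either library of CT12 or of CT16 was left out.

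Fdps encodes farnesyl diphosphate synthase, which stands at the branch to other isoprenoids. Its CPM was 25.8 and 25.9 at CT0, 12.0 and 14.03 at CT4, 11.4 and 18.8 at CT8, 15.98 and 10.7 at CT12, 12.0 and 20.0 at CT16, 25.7 and 36.9 at CT20, and 20.7 and 31.1 at CT24. All libraries of CT20, CT24 and CT0 lay above those of CT4 to CT16. Its fitted curve spanned 2.28-fold (1.19, SE 0.30), with a peak at CT21.4 and an adjusted p of 0.00758.

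The other 4 early enzymes did not pass. Fdft1, squalene synthase, ranged from 5.93 to 19.7 CPM with a fitted difference of 1.00 on the log2 scale (adjusted p = 0.107). Mvk, mevalonate kinase, had 0.88 (adjusted p = 0.146), Acat2, the cytosolic thiolase at the start of the chain, had 0.51 (adjusted p = 0.240), and Idi1, the isomerase of isopentenyl diphosphate, had 0.42 (adjusted p = 0.763). Fdft1 shares 774 exon bases with Ctsb on the opposite strand. Coding reads alone gave 1.00, but they were nearly all its reads (10496, against 2 in the 5′UTR and 13 in the 3′UTR). That value is thus no check of the overlap. CT8 replicate 2 held the highest value of any library for Fdft1 and Idi1; without it Fdft1 had a difference of 1.68 with an adjusted p of 7.04e-05.

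Of the 10 later enzymes, from squalene to cholesterol, 2 passed the test, where 11.3% of all transcripts did. The median difference was 0.49 on the log2 scale, against 0.44 over all transcripts tested. Lss encodes lanosterol synthase, which closes the sterol rings. Its CPM was 20.2 and 18.3 at CT0, 10.3 and 8.72 at CT4, 7.63 and 12.2 at CT8, 7.37 and 8.23 at CT12, 10.9 and 20.3 at CT16, 19.6 and 23.6 at CT20, and 19.4 and 15.0 at CT24. The CT20, CT24 and CT0 libraries lay above every library of CT4, CT8 and CT12, and the CT16 pair spanned both levels. The fitted difference of Lss was 2.64-fold (1.40, SE 0.25), with a peak at CT20.8 (SE 0.673 h) and an adjusted p of 0.000861. A gene on the opposite strand shares 381 exon bases with Lss. Coding reads alone gave 1.39, which is no check of the overlap, since nearly all reads were coding (11596, against 7 and 31 in the 5′UTR and 3′UTR).

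Dhcr7 encodes a reductase that acts at the end of the pathway. Its CPM was 57.0 and 52.4 at CT0, 35.6 and 41.0 at CT4, 29.5 and 45.5 at CT8, 31.7 and 22.2 at CT12, 21.8 and 42.9 at CT16, 47.7 and 58.4 at CT20, and 51.4 and 58.1 at CT24. The 6 libraries of CT20, CT24 and CT0 were again all above the other 8. Peak and trough of the fitted curve differed 1.92-fold (0.94, SE 0.24), with a peak at CT23.4 and an adjusted p of 0.0110, and the adjusted p was 0.0521 without CT12 replicate 2.

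The remaining 8 later enzymes gave no call. Ebp, a sterol isomerase, stayed between 85.9 and 127 CPM with a difference of 0.36 (adjusted p = 0.0958), and Sc5d, a sterol desaturase, between 90.8 and 177 CPM with 0.49 (adjusted p = 0.122). Tm7sf2, a sterol reductase, had 0.45 (adjusted p = 0.142), Hsd17b7 had 0.49 (adjusted p = 0.294), Nsdhl, which takes part in removing the methyl groups, had 0.69 (adjusted p = 0.318), and Cyp51, the lanosterol demethylase, had 0.49 (adjusted p = 0.400). Msmo1, a methyl sterol oxidase, had 0.30 (adjusted p = 0.841), and 0.97 without CT8 replicate 2. Sqle, the squalene epoxidase that controls entry into the sterol branch, had 0.25 (adjusted p = 0.968) over a range of 0.89 to 10.7 CPM, with the highest value in CT8 replicate 2. Without that library Sqle had 1.85 (adjusted p = 0.0490) and a peak at CT20.4.

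**Figure D3:**
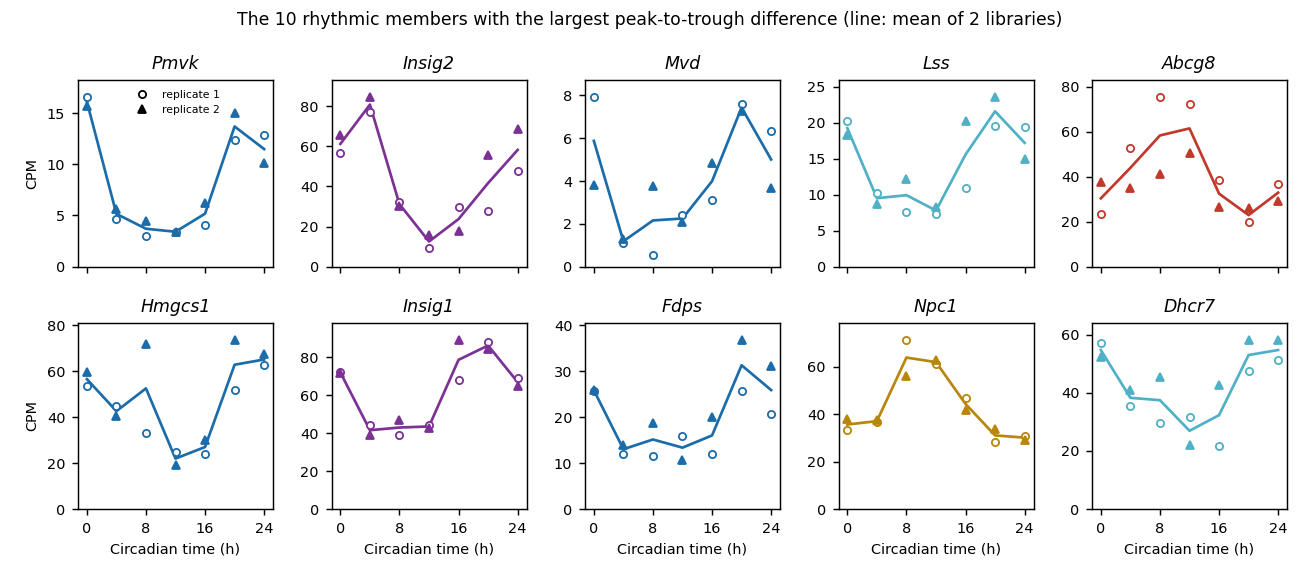
CPM (vertical axis, from 0) against circadian time (hours) for the 10 rhythmic members with the largest fitted difference; open circles are replicate 1, filled triangles replicate 2, and lines join the means of 2 libraries. Pmvk, Lss, Fdps, Dhcr7 and Insig1 are high at CT20 to CT0, Insig2 is highest at CT4 and lowest at CT12, and Npc1 and Abcg8 are highest at CT8 and CT12.

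The livers of one time point did not carry the same level of the synthesis enzymes. At CT8, 15 of the 18 enzymes were higher in replicate 2 than in replicate 1, with a median difference of 0.84 on the log2 scale (range −0.24 to 2.81), while the median over all transcripts tested was 0.00. Sqle was 10.7 CPM in the one and 1.54 CPM in the other, Mvd 3.78 and 0.54 CPM, and Msmo1 49.1 and 18.03 CPM. The same enzymes were also higher in replicate 2 at CT16, with 16 of 18 and a median of 0.62 against −0.01 over all transcripts. At the other 5 time points the median lay between −0.19 and 0.21. The 12 genes of fatty acid synthesis had medians of 0.16 at CT8 and 0.11 at CT16, and between −0.43 (CT4 and CT12) and 0.31 (CT20) at the other times. The SREBP control genes had a median of 0.08 at CT8. The 4 genes of efflux and esterification lay the other way in the same livers, lower in replicate 2 in 4 of 4 at both times, with medians of −0.74 at CT8 and −0.36 at CT16. Their medians at the other 5 time points lay between −0.43 (CT4) and 0.47 (CT0), so such differences were not limited to CT8 and CT16. With 2 livers a time point, this difference between mice has no test.

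**Figure D4:**
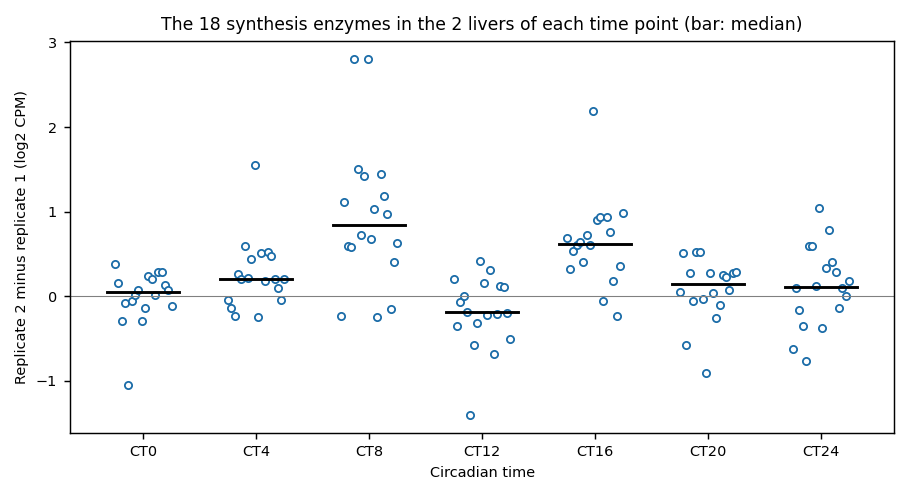
Replicate 2 minus replicate 1 (log2 CPM) for each of the 18 synthesis enzymes (open circles) at each circadian time, with the median as a bar. The medians at CT8 (0.84) and CT16 (0.62) stand above those of the other times, which lie between −0.19 and 0.21.

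The CT8 pair of livers bears on the fitted differences of the enzymes. Without CT8 replicate 2 the log2 difference rose from 0.25 to 1.85 for Sqle, from 0.30 to 0.97 for Msmo1 and from 1.00 to 1.68 for Fdft1. It also rose from 0.42 to 0.79 for Idi1, 0.49 to 0.87 for Cyp51, 0.49 to 0.85 for Hsd17b7, 0.88 to 1.05 for Mvk and 0.49 to 0.64 for Sc5d. Among the 18 enzymes only Tm7sf2 (0.45 to 0.42) and Ebp (0.36 to 0.33) fell. Without CT8 replicate 1 Srebf2 had 0.66 in place of 0.73. CT8 replicate 2 had 82597296 counts and CT8 replicate 1 had 87480771, and their Mup shares were 56.0% and 51.1%; the part of either in the difference was not tested.

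All 4 genes of SREBP control passed the rhythm test, at different hours. Insig2 had the largest swing of them. Its CPM was 56.6 and 65.8 at CT0, 77.0 and 84.6 at CT4, 32.3 and 30.0 at CT8, 9.20 and 15.8 at CT12, 29.5 and 17.9 at CT16, 27.5 and 55.8 at CT20, and 47.9 and 68.5 at CT24. Both libraries of CT4 lay above all others, and both of CT12 below all others. Between fitted peak and trough it changed 4.60-fold (2.20, SE 0.34), with a peak at CT1.40 (SE 0.631 h) and an adjusted p of 0.000129, and it stayed past 0.05 in all 14 fits that left out 1 library.

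Insig1, the paralog that SREBP-2 itself induces, ran at another hour. Its CPM was 72.4 and 71.4 at CT0, 44.2 and 38.8 at CT4, 38.8 and 47.0 at CT8, 44.2 and 42.7 at CT12, 67.9 and 89.2 at CT16, 87.8 and 84.3 at CT20, and 68.7 and 65.0 at CT24. All 8 libraries of CT16 to CT24 and CT0 lay above all 6 of CT4 to CT12. The fitted difference was 2.30-fold (1.20, SE 0.13), with a peak at CT19.6 (SE 0.386 h) and an adjusted p of 4.64e-05.

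Set side by side as CPM of coding reads per kilobase of coding region, Insig1 averaged 70.2 (SD 21.8 over 14 libraries) and Insig2 averaged 51.6 (SD 27.4). The ratio of Insig2 to Insig1 on this scale was 1.85 and 2.31 at CT4. It was 0.246 and 0.382 at CT12, 0.455 and 0.230 at CT16, and 0.381 and 0.613 at CT20. Insig2 reads were thus the more dense of the pair at CT4 and in no other library. At CT0 the ratio was 0.813 and 0.975, at CT8 0.907 and 0.612, and at CT24 0.668 and 0.987.

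Insig2 has 4 transcripts in the data, with 3 of them sharing 1 set of coding counts, so only the 5′UTRs tell the first exons apart, and these overlap in part. The 5′UTR of the transcript used had 16.3 CPM on average at CT4 and 1.74 CPM at CT12. The 5′UTRs of the other 3 transcripts had 9.66, 4.21 and 11.7 CPM at CT4 and 1.53, 0.744 and 1.39 CPM at CT12. All 4 were thus lowest at CT12 and highest at CT4, and their fitted peaks lay between CT1.39 and CT1.47 when all reads of each transcript were used.

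Srebf2, which encodes SREBP-2, changed less. It ranged from 9.04 CPM (CT12 replicate 2) to 18.1 CPM (CT0 replicate 1), with both CT0 libraries above 17 CPM and both CT12 libraries at or below 10.4 CPM. The fitted difference was 1.65-fold (0.73, SE 0.17), with a peak at CT21.0 and an adjusted p of 0.0168. Scap ranged from 15.1 CPM (CT16 replicate 2) to 26.2 CPM (CT8 replicate 1). Its difference was 1.48-fold (0.57, SE 0.12), with a peak at CT3.85 and an adjusted p of 0.0302. The call of Scap was the least firm of the 14: it was lost without CT0 replicate 1, CT4 replicate 1, CT12 replicate 1 or either CT16 library, with adjusted p up to 0.105. The call of Srebf2 was lost without CT8 replicate 1 or CT12 replicate 2, with adjusted p up to 0.0660.

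Among the 4 genes of uptake and transport, Npc1 alone passed. NPC1 sits in the lysosome membrane and hands cholesterol from taken-up lipoproteins to the rest of the cell. Its CPM was 33.4 and 37.9 at CT0, 36.7 and 37.4 at CT4, 71.5 and 56.3 at CT8, 61.1 and 62.8 at CT12, 47.0 and 41.6 at CT16, 28.3 and 33.8 at CT20, and 30.9 and 29.3 at CT24. The CT8 and CT12 libraries lay above all others, and the CT16 pair came next. The fitted difference was 2.12-fold (1.09, SE 0.12), with a peak at CT10.3 (SE 0.470 h) and an adjusted p of 5e-05. Rmc1 on the opposite strand shares 288 of 5209 exon bases with Npc1. Coding reads alone gave 1.10, but most reads were coding (37102, against 362 and 424 in the 5′UTR and 3′UTR), so this cannot check the overlap.

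Npc2, the soluble partner of NPC1 inside the lysosome, ranged from 11.3 to 19.2 CPM with a fitted difference of 0.40 (adjusted p = 0.318). Stard4, a cytosolic sterol carrier, ranged from 10.5 to 18.8 CPM with 0.52 (adjusted p = 0.0865). Mylip, the ubiquitin ligase that sends lipoprotein receptors to degradation, ranged from 1.69 to 4.08 CPM with 0.13 (adjusted p = 0.949).

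Abcg5 and Abcg8 together encode the transporter that sends sterols into bile. The genes lie head to head on chromosome 17, with start sites at 84683011 (Abcg5, minus strand) and 84683121 (Abcg8, plus strand) and 109 bases between them, so that their promoter windows share bases. The CCAAT closest to the Abcg5 start site lies in both windows and is shown on the strand of Abcg8.
Abcg8 (chr17:84682997-84683026, plus strand, CCAAT 114 bases before the start site): taacagttcaCCAATttggccaacgatgcc

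Abcg8 had 23.2 and 37.5 CPM at CT0, 52.6 and 35.2 at CT4, 75.4 and 41.2 at CT8, 72.3 and 50.6 at CT12, 38.4 and 26.4 at CT16, 19.9 and 25.9 at CT20, and 36.5 and 29.2 at CT24. Replicate 1 was higher at every time from CT4 to CT16, and the groups overlapped more than those of Npc1. The fitted difference was 2.55-fold (1.35, SE 0.28), with a peak at CT8.70 (SE 0.797 h) and an adjusted p of 0.00186. Abcg5 ranged from 20.2 CPM (CT0 replicate 1) to 58.8 CPM (CT12 replicate 1). Its difference was 1.90-fold (0.93, SE 0.25), with a peak at CT10.9 (SE 1.19 h) and an adjusted p of 0.0169, which became 0.0709 without CT12 replicate 1. The measured transcript of Abcg5 shares 40 exon bases with an exon of Abcg8 on the other strand.

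Soat2, which esterifies cholesterol in hepatocytes for lipoproteins, ranged from 5.31 CPM (CT20 replicate 2) to 12.2 CPM (CT12 replicate 2). Its fitted difference was 1.76-fold (0.82, SE 0.17), with a peak at CT10.3 and an adjusted p of 0.00672. Lcat, the secreted enzyme that esterifies cholesterol on circulating lipoproteins, ranged from 134 to 190 CPM with a difference of 0.10 (adjusted p = 0.856).

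The calls of the late-day group rested on the scaling. Scaling by total count, which lets the Mup family weigh on every other transcript, shifts all transcripts along a 24 h curve of 0.46 on the log2 scale that peaks at CT22.4, and raises night over day by 0.16. Under it 15 members passed, 9 of them among the 14. The share of all 17299 transcripts that passed under total count scaling was smaller than the 11.3% under TMM scaling. Npc1 (adjusted p = 0.243), Abcg5 (0.451), Abcg8 (0.155), Soat2 (0.646) and Scap (0.0726) did not pass, with their fitted peaks still at CT8.05 to CT11.6 for the first 4 and at CT1.50 for Scap. Mvk, Fdft1, Cyp51, Tm7sf2, Nsdhl and Sc5d passed in their place. DESeq2's size factors, upper quartile scaling and TMM without the Mup family each called the same 14 as the scaling used here.

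The middle of the subjective night (CT16 and CT20) was then set against the middle of the subjective day (CT4 and CT8), 4 libraries each. At an adjusted p of 0.05, 4 members were higher at night, where 3.06% of all transcripts were, and 1 was lower, where 1.37% were. Mvd was 3.42-fold higher at night (1.78 on the log2 scale, SE 0.40, adjusted p = 0.0145), Insig1 1.95-fold (0.96, SE 0.12, adjusted p = 0.000135), Pmvk 1.93-fold (0.95, SE 0.17, adjusted p = 0.00243) and Lss 1.89-fold (0.92, SE 0.19, adjusted p = 0.00746). Abcg8 was 1.86-fold higher by day (−0.89, SE 0.21, adjusted p = 0.0224). Under scaling by total count Abcg8 had −0.73 and did not pass (adjusted p = 0.183), while Fdps passed. The median over the members was 0.14, against −0.01 over all transcripts tested. In this contrast 14 of the 15 Kupffer, endothelial and stellate markers were below 0 (median −0.30), and 1, Col1a1 of stellate cells, passed (−0.95, adjusted p = 0.0195). Of the cholangiocyte markers 3 of 5 were below 0 (median −0.04) and of the erythroid markers 2 of 2 (median −0.14), with 0 passing in either list. Summed levels at night and by day were 64.8 to 89.5 and 81.9 to 108 CPM for Kupffer cells, 95.7 to 136 and 133 to 144 CPM for endothelial cells, and 101 to 126 and 133 to 156 CPM for stellate cells. The 5 hepatocyte markers summed to 34600 to 45100 CPM at night and 32800 to 38100 CPM by day; 2 of them were below 0 and 1, Serpina1c, passed as higher at night (0.84, adjusted p = 0.000577). The 5 pancreatic acinar markers summed to 2.47 to 2419 CPM at night and 6.59 to 7.77 CPM by day. The part of the cell makeup in the members' differences was not tested.

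Of the 25 members that did not pass, Insig2 had −0.67 (SE 0.22, adjusted p = 0.0994) and Fdps 0.67 (SE 0.20, adjusted p = 0.0732). The count was 3 without CT4 replicate 1, without CT8 replicate 1 or without CT16 replicate 2, and 11 without CT8 replicate 2. Mvd did not pass without CT4 replicate 1 (adjusted p = 0.0830), CT4 replicate 2 (0.0593) or CT16 replicate 2 (0.0675), and its log2 difference was 1.36 without CT8 replicate 1 and 2.76 without CT8 replicate 2. Abcg8 did not pass without CT4 replicate 1 (0.131), CT8 replicate 1 (0.159), CT16 replicate 2 (0.110) or CT20 replicate 1 (0.0866), and Lss did not pass without CT8 replicate 1 (0.0539). Pmvk and Insig1 passed in all 14 fits that left out 1 library. The count was 9 by DESeq2. With the night taken as CT12, CT16 and CT20 and the day as CT0, CT4 and CT8, it was 3 (Insig1, Insig2 and Stard4), and the sign of Pmvk turned to −0.12. In that grouping CT0 counts as day, where Pmvk had its highest level.

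**Figure D5:**
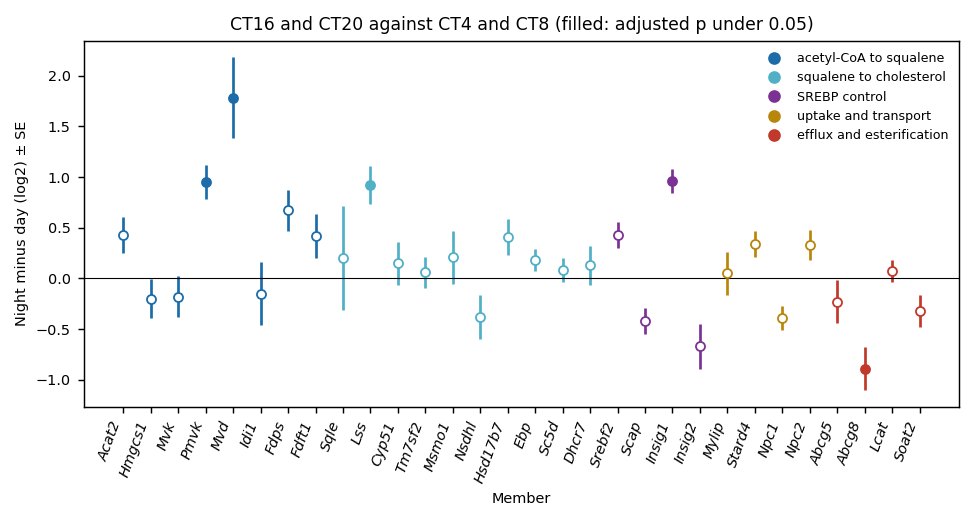
Night (CT16 and CT20) minus day (CT4 and CT8) for each member on the log2 scale with its SE, coloured by role; filled points passed an adjusted p of 0.05. Pmvk, Mvd, Lss and Insig1 are filled above 0 and Abcg8 below 0.

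CT24 was compared with CT0 to see whether the start and the end of the day matched, 2 libraries each. No member passed edgeR's adjusted test (0 of 30), where 0.0% of all transcripts passed. At an unadjusted p under 0.05 there was 1 member, Pmvk (−0.49, SE 0.23), and 873 transcripts in all (5.05%). DESeq2 called 0 members and 2 transcripts in all. The median absolute difference was 0.13 over the members and 0.23 over all transcripts tested, which include transcripts with fewer counts than any member.

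Reads in the 5′UTR relative to the coding region were tested for a rhythm with limma in the 25 members with enough reads. None passed (0 of 25), and of all 7640 transcripts tested 0.0% passed. At an unadjusted p under 0.05 limma gave 1 member, Mylip, with a p of 0.00617 over 14 libraries, and 4.93% of all transcripts. Members differed more in the ratio itself: the 5′UTR held 20.6% of the 5′UTR and coding reads of Sqle, 20.2% of those of Insig2, 16.2% of those of Ebp and 0.690% of those of Abcg8. These shares hold for the transcript used: they were 6.1% to 26.2% for the other transcripts of Insig2 and 13.4% for the other one of Abcg8.

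As CPM of coding reads per kilobase of coding region, the members spanned 1.61 (Sqle, SD 1.21 over 14 libraries) to 132 (Ebp, SD 14.7). Sc5d (120, SD 26.4) and Lcat (116, SD 10.7) were next to Ebp, and these 3 overlap in range. Mylip (1.96, SD 0.417), Mvk (2.72, SD 0.960) and Mvd (3.28, SD 2.04) stood next to Sqle, with ranges that overlap one another. Ebp, Sc5d and Lcat were not among the 14 rhythmic members, though Ebp passed by DESeq2 (adjusted p = 0.0339) and with a minimum of 100 counts (0.0489), and Sc5d passed under total count scaling (0.0169) and without CT8 replicate 2 (0.0185), while Insig1 (70.2) and Insig2 (51.6) were the densest of the 14.

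Other genes around the pathway were read from fixed lists, beside 11.3% rhythmic and 3.06% higher at night over all transcripts. Of 13 genes that process SREBP or degrade sterol-regulated proteins, 1 passed the rhythm test, Sec23a, a coat protein of vesicles that leave the endoplasmic reticulum (0.63, peak at CT13.2). Of 13 genes of the isoprenoid branch and of 13 genes of sterol transport and use, 0 passed. Of 12 genes of fatty acid synthesis under SREBP-1, 10 passed, with fitted peaks from CT16 to CT22.8, and 8 of the 12 were higher at night. Among them were Thrsp (3.59, peak at CT17.3), Elovl6 (1.77, peak at CT16.8), Acly (1.85, peak at CT21.0) and Acss2 (1.38, peak at CT22.8). The peaks of the 6 rhythmic synthesis enzymes of cholesterol ran from CT20.0 to CT0.85.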

How the data were processed

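The authors clipped and aligned the reads of 14 liver libraries (the submitters' processing notes name Bowtie2 2.1.0.0, SAMtools 0.1.19.0 and mm10) and deposited, per RefSeq transcript, whole-number counts of reads for its 5′UTR, its coding region (CDS) and its 3′UTR. Reads with a unique alignment were used, and transcripts of 1 gene can carry identical coding counts, so a read counts for each transcript it lies in. Whether strand was used is not given in the sources used here. The repeat sequencing run listed for CT16 replicate 2 was not analysed here as a separate library.

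The 3 counts of a transcript were summed. Transcripts averaging 10 or more counts a library were scaled by TMM and tested in edgeR 4.0.16 (R 4.3.3) with 24 h cosine and sine terms, night against day, and CT24 against CT0, all libraries in each fit, Benjamini-Hochberg adjustment over all transcripts and a threshold of 0.05. The 5′UTR to CDS ratio (pseudocount 0.5, at least 10 counts per region) was tested in limma 3.58.1. SE of peak-to-trough differences and phases came from least squares on log2 CPM, and SE of the other differences from edgeR's estimate and its F statistic. Alternatives included DESeq2 1.42.0 and JTK_CYCLE with lags every 2 h. On simulated counts the cosine test recovered 39 of 100 transcripts with a log2 peak-to-trough difference of 1 and 80 of 100 with 2, and called 13 others among 17138. The night-day test recovered 8 and 44 of 100 of the same transcripts. Their peak hours were random, so their night-day differences were smaller than 1 and 2. The ratio test recovered 3 and 65 of 99. Livers came from separate mice; with 2 per time point their number limits the precision.

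The members, gene lists and tests were chosen with earlier results of these data known. All 30 members are named; the 10 rhythmic ones with the largest difference are given in every library, and at most 4 rhythmic genes of each other list by lowest adjusted p.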

Additional observations from a re-analysis of the deposited data

How the results depend on the processing

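The number of rhythmic members was 14 and stayed between 10 and 16 in every other scaling, filter, block or test and without any 1 time point, with these exceptions: 7 without the CT12 time point, and 3 by JTK_CYCLE with a further adjustment over all transcripts (Pmvk, Insig2 and Npc1). Leaving out 1 library gave 11 to 20. The number differing between night and day was 5; it was 9 by DESeq2, 3 with CT12, CT16 and CT20 against CT0, CT4 and CT8, where Pmvk had −0.12, and 3 to 11 when 1 library was left out. For CT24 against CT0 and for the 5′UTR to CDS ratio the number was 0 throughout, including 0 to 0 when 1 library was left out; there the lone library of a time point is assumed to vary like the others. Replicate numbers did not pair the livers (21 correlations between same-numbered deviations, median 0.0299, from −0.0607 to 0.187, 3 of them over 0.1). With a replicate block 14 members were rhythmic, the same ones, and 6 differed between night and day, with Fdps added. The cause of these changes was not tested.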
